A study of Homo sapiens with 10 samples.

Results

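Lysosomes are acid-filled organelles that break down proteins, sugars and lipids, and autophagy is the route that wraps parts of the cell in a membrane and delivers them there. Their genes were followed as a list of 38 symbols covering autophagy, the lysosomal membrane, the lysosomal enzymes and the proton pump, in a table of 20379 genes. Of the 38, 37 were found by their own symbol and 1, CTSL, by its older symbol CTSL1. All 38 had a mean of at least 1 FPKM (fragments normalised for transcript length and for the size of the library) over the libraries, a unit inferred from the values, and entered the tests with 12352 genes in all.

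Poly(A) RNA was sequenced from DBTRG-05MG and U87, both established cell lines from human glioblastoma, after 0, 6, 12, 24 and 48 h in 1 mM dibutyryl cAMP. This compound enters cells and acts as cyclic AMP does, through protein kinase A. The 10 libraries give each line 1 library at each time, and the 0 h libraries of each line carry the same 1 mM label at time 0. Each line is a single culture series as far as the labels say, and no untreated culture of a later time was analysed here, so time in culture and time in dibutyryl cAMP cannot be told apart. The series title concerns IL-6 and glycolysis in therapy-induced senescence of glioblastoma cells.

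A cell starts an autophagosome with the kinase ULK1 and the lipid kinase complex that holds BECN1 and UVRAG. WIPI1 reads the lipid made there, and the ATG7, ATG12 and ATG5 proteins then attach LC3 and GABARAP proteins to the growing membrane. SQSTM1 (p62) ties ubiquitin-marked cargo to LC3 and is itself degraded with it. The vacuolar proton pump, a cytosolic V1 part on a membrane-bound V0 part, acidifies the lysosome so that its cathepsins and glycosidases can work. TFEB and MITF are related transcription factors that bind promoters of many of these genes at a palindrome with CACGTG at its centre, while the cAMP response element TGACGTCA is the site of CREB, a target of protein kinase A.

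The promoters below are shown because they hold those letters. RefSeq promoter windows on GRCh38.p14, from 250 bases before to 50 after a start, matched 27 of the 38 genes and 42 windows of 34943 in all. The letters TGACGTCA stood in 2 of the 42 member windows, those of GABARAPL1 and MITF, and in 1.84% of all windows, searched on both strands. Each stretch is written 5′ to 3′ on the gene's strand with TGACGTCA in capitals. The GABARAPL1 stretch lies at chr12:10212817-10212876 on the plus strand and the MITF stretch at chr3:69936410-69936477 on the plus strand. The MITF stretch belongs to a start far inside the gene, which spans chr3:69739435-69968337. Which start of MITF these lines used was not tested.
GABARAPL1: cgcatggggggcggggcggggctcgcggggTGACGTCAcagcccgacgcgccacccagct
MITF: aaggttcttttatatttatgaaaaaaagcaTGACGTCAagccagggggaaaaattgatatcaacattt

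The letters TCACGTGA stood in 4 of the 42 member windows, those of ATP6V0D1, CTSA, LAMP1 and MCOLN1, and in 0.979% of all windows. Its core CACGTG, which every TCACGTGA contains, was found in 7 of the 42 member windows, adding CD63, CTSD and NEU1, and in 7.23% of all windows. Read as a palindrome, TCACGTGA is the same on both strands. In the next 4 stretches capitals mark CACGTG, and a match is a description of the letters, not of binding. They lie at chr19:7522552-7522623 on the plus strand for MCOLN1, chr13:113297180-113297238 on the plus strand for LAMP1, chr16:67481180-67481247 on the minus strand for ATP6V0D1 and chr20:45891279-45891334 on the plus strand for CTSA. The LAMP1 window holds a second TCACGTGA, beginning at -2 from the start, which the end of the printed stretch cuts off. Outside that stretch it also holds CACGTG beginning at -192, -176, -159 and -142.
MCOLN1: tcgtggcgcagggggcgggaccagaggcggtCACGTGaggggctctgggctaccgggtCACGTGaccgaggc
LAMP1: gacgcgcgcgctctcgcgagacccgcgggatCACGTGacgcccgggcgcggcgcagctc
ATP6V0D1: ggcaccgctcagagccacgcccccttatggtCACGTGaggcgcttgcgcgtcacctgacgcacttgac
CTSA: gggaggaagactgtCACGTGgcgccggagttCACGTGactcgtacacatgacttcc

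Totals of the table ran from 405316 to 487281 FPKM per library, and the relative depth, read from the step that 1 read makes at low values, ran from 100 to 116.8% of DBTRG-05MG at 0 h. No read counts were used, so no counting interval is given. In the U87 course the 24 h library stood apart from its neighbours. Its MKI67, a marker of dividing cells, was 57.4 FPKM at 24 h, beside 53.7, 38.2, 21.1 and 12.3 FPKM at 0, 6, 12 and 48 h, while DBTRG-05MG had 79.9, 76.0, 69.4, 46.3 and 10.3 FPKM at 0, 6, 12, 24 and 48 h. The median tested gene of U87 lay 0.15 log2 units below 0 h at 24 and at 48 h, and changes in U87 are to be read against it. After scaling to equal medians it lay 0.0087 above 0 h at 24 h and 0.041 above it at 48 h. The glial and neural stem markers summed to 934 to 2248 FPKM in DBTRG-05MG, against 5401 to 7262 FPKM in U87, most of it VIM. SLC1A3 was likewise higher in U87, at 0.521 to 1.96 FPKM in DBTRG-05MG, against 3.74 to 24.3 FPKM in U87. SOX2 and NES ran the other way, with SOX2 at 23.0 to 36.6 FPKM in DBTRG-05MG and listed at 0 in all U87 libraries, and NES at 31.1 to 46.8 FPKM in DBTRG-05MG, against 4.94 to 9.17 FPKM in U87. GFAP was at most 0.508 FPKM. Of 12 macrophage and microglia markers, cells rich in lysosomes, 2 reached 1 FPKM (CSF1R and FCER1G), the list summed to 1.45 to 4.66 FPKM in DBTRG-05MG, against 0.637 to 2.71 FPKM in U87, and no marker of it was at 0 in every library. In bulk libraries fewer cells of a type and less RNA per cell cannot be told apart.

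At 48 h most members stood above their 0 h level, and SQSTM1 stood out by size, with 3.17-fold its 0 h level in DBTRG-05MG and 4.47-fold in U87. The members were chosen with earlier results of these data known, so the counts below describe the list and are not a test of it. In DBTRG-05MG 36 of 38 members were higher at 48 h than at 0 h, and 52.0% of all tested genes were. A rise of any size counts here, for the members and for all genes. The 36 include MITF, LAMP1 and GLB1, with log2 changes of 0.0030, 0.0048 and 0.0064. In U87 24 of 38 were higher, and 34.6% of all tested genes were. The same 24 members were higher in both lines, against 23.6% of all tested genes, and 2, MCOLN1 and NPC2, were lower in both, against 36.0%. These counts depend on scaling in U87. With equal medians 36 members were higher in DBTRG-05MG and 34 in U87 (54.0 and 53.8% of all tested genes), 32 were higher in both lines (35.1%) and 0 were lower in both (26.3%). The median log2 change at 48 h was 0.36 in DBTRG-05MG, against 0.13 in U87, over the members, beside 0.02 and -0.15 over all tested genes. The summed level of the members was 5160 FPKM at 48 h in DBTRG-05MG, against 3477 FPKM at 0 h, and 4430 FPKM at 48 h in U87, against 3349 FPKM at 0 h.

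No member passed the test at any time. The test, limma on log2(FPKM + 1) with the line as a block, sets the mean change of both lines against their disagreement, with 4 residual degrees of freedom. At 48 h it called 0 of 38 members and 0.0% of all tested genes at adjusted p under 0.05, and 1512 genes had an unadjusted p under 0.05. Those 1512 were 12.2% of the genes tested, and 4 members, SQSTM1, GABARAPL1, WIPI1 and PSAP, were among them, each higher at 48 h, as were 3.71% of all genes at that p. MKI67 was also at its lowest at 48 h in both lines, and its part in these values was not tested. At 6, 12 and 24 h it called 0 members and 1 gene each, 0.0081% of those tested. Unadjusted p fell under 0.05 at 6 h for 1 member (ULK1, where 5.31% of all genes did so), at 12 h for 0 members (4.47%) and at 24 h for 2 members (MAP1LC3B and NPC2, 3.51%). Simulated data had noise of SD 0.27 log2 units and changes that were equal in both lines. On them the 48 h comparison recovered 56% of changes of 1 log2 unit and 100% of changes of 2 units. What share of such changes it finds in these libraries was not tested. SQSTM1, with a mean change of 1.91 log2 units at 48 h, was not called (limma adjusted p = 0.117).

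**Figure D1:**
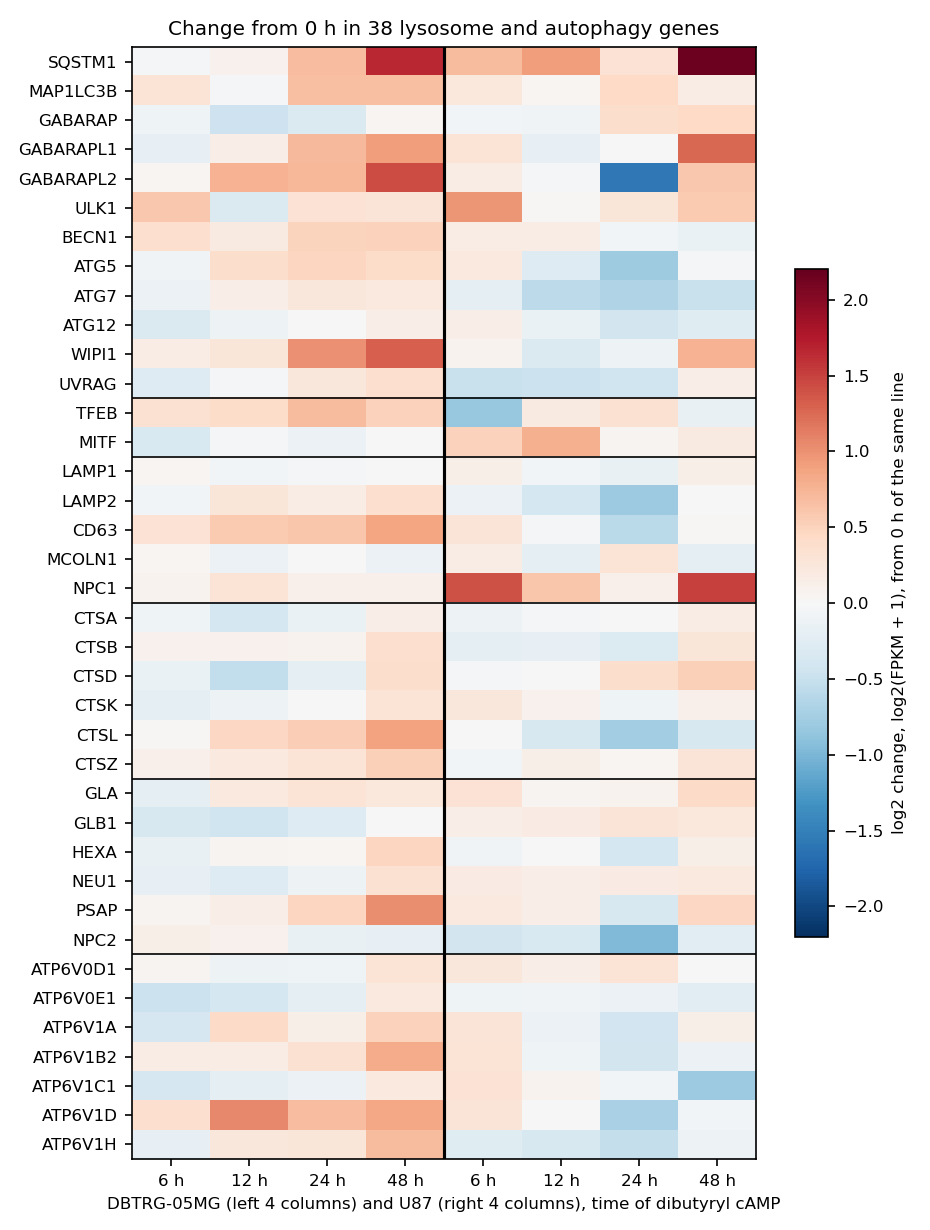
Change of each member from 0 h of its own line, in log2(FPKM + 1), with genes in rows grouped by role (autophagy, transcription factors, membrane, proteases, glycosidases and carriers, proton pump) and the times of DBTRG-05MG left of those of U87; red is above 0 h and blue below. In the 48 h columns 36 of 38 members lie above 0 h in DBTRG-05MG and 24 in U87, as deposited, some by very little (0.0030 for MITF in DBTRG-05MG). The darkest cell is SQSTM1 at 48 h in U87 (2.15).

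Most members were at their highest at the end of the course in DBTRG-05MG. In DBTRG-05MG 28 of 38 members had their highest level at 48 h, as did 28.2% of all tested genes, and 0 had it at 0 h, as did 22.9%. In U87 16 members were highest at 48 h, against 18.8% of all tested genes, and 11 were highest at 6 h, against 25.4%. The lowest level of the U87 course lay at 24 h for 17 members, and for 30.2% of all tested genes, in the library described above as standing apart. In DBTRG-05MG 15 members were lowest at 6 h (30.7% of all genes) and 12 at 0 h (19.5%). Before 48 h fewer members were higher in both lines, namely 14 at 6 h (22.3% of all genes), 9 at 12 h (22.6%) and 8 at 24 h (15.1%).

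**Figure D2:**
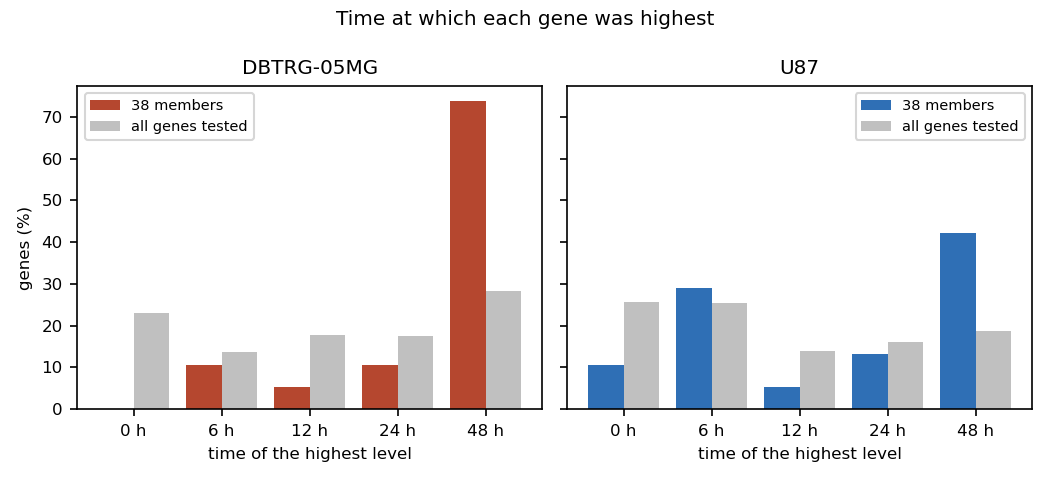
Share of genes, in percent, whose highest level of the 5 times fell at each time, for the 38 members (coloured bars) and all 12352 tested genes (grey bars), with DBTRG-05MG left and U87 right. In DBTRG-05MG 28 members fall at 48 h and 0 at 0 h, and in U87 16 fall at 48 h and 11 at 6 h.

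Size alone singled out few members, with folds counted here on log2(FPKM + 1). At least 2-fold higher at 48 h were SQSTM1, GABARAPL2, WIPI1 and PSAP in DBTRG-05MG, 4 of 38 where 4.57% of all tested genes were, and SQSTM1, GABARAPL1 and NPC1 in U87, 3 of 38 where 2.14% were. SQSTM1 alone was so in both lines, where 0.567% of all tested genes were. At 6, 12 and 24 h, 1.17, 2.47 and 3.18% of all tested genes stood 2-fold higher or more in DBTRG-05MG, with ATP6V1D at 12 h and WIPI1 at 24 h among them. In U87, where 2.73, 2.61 and 2.15% were, NPC1 at 6 h was so. On that scale GABARAPL2 at 24 h in U87 was the only member at least 2-fold lower at any time; as a ratio of FPKM, TFEB at 6 h in U87 was also that low, at 0.332-fold its 0 h level. At 6, 12, 24 and 48 h the share of all tested genes that low was 0.81, 1.61, 1.6 and 5.16% in DBTRG-05MG, against 2.43, 2.67, 4.5 and 4.32% in U87.

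SQSTM1, on chromosome 5 (chr5:179806398-179838078, GRCh38), encodes the autophagy cargo receptor p62. It had 169.7, 166, 180.3, 273 and 539 FPKM in DBTRG-05MG at 0, 6, 12, 24 and 48 h, and 126, 205, 239, 156 and 563 FPKM in U87, and the same order of times holds for the other genes. The 48 h library was the highest in each line, and the other libraries of both lines covered one range, 126 to 273 FPKM. The mean change at 48 h was 1.91 ± 0.31 log2 units (SE), with limma adjusted p = 0.117, and it ran from 1.70 to 2.12 over 17 other settings. The mean trend over time ranks was 0.40 ± 0.10 per step (adjusted p = 0.11), and the lines' levels did not pass the test of a difference (adjusted p = 0.714). Of its exon bases 20.7% overlap MRNIP on the other strand. MRNIP, listed as C5orf45, was 3.75 to 6.77 FPKM in DBTRG-05MG, against 2.80 to 4.69 FPKM in U87, far below SQSTM1, and the protocol names no strand marking.

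The ubiquitin-like proteins that coat the autophagosome differed among themselves. GABARAPL1, on chromosome 12 (chr12:10212458-10223130, GRCh38), had 38.7, 34.2, 43.00, 64.05 and 73.9 FPKM in DBTRG-05MG, against 12.6, 15.9, 11.1, 12.7 and 31.8 FPKM in U87. All 5 DBTRG-05MG libraries lay above all 5 U87 libraries, and 48 h was the highest time in each line. The difference between the lines, DBTRG-05MG minus U87 on the log2 scale with its SE, was 1.58 ± 0.19 (adjusted p = 0.000106), a 3.02-fold higher mean in DBTRG-05MG, and the change at 48 h was 1.09 ± 0.30 (adjusted p = 0.198). GABARAPL2 stood at 28.5, 29.4, 49.2, 47.99 and 78.7 FPKM in DBTRG-05MG, against 49.8, 55.7, 48.9, 16.1 and 75.2 FPKM in U87. Its levels overlapped between the lines, both lines were highest at 48 h, and the U87 library at 24 h was the lowest of all 10. The change at 48 h was 1.01 ± 0.49 (adjusted p = 0.446), with a log2 change of 1.44 in DBTRG-05MG, against 0.59 in U87.

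MAP1LC3B, the LC3 protein most used to follow autophagosomes, ranged over 62.7 to 101 FPKM in DBTRG-05MG, against 67.3 to 91.7 FPKM in U87, and its near-identical copy MAP1LC3B2 makes its share of reads uncertain. GABARAP was the most abundant of the 4 by FPKM, at 192 to 269.8 FPKM in DBTRG-05MG, against 239 to 340.3 FPKM in U87. Neither differed between the lines past the threshold as deposited (adjusted p = 0.7 and 0.223), and their changes at 48 h had adjusted p = 0.478 and 0.72. With equal medians GABARAP was called lower in DBTRG-05MG (limma adjusted p = 0.0418). For GABARAP 30.5% of exon bases are shared with a second annotated gene on the same strand.

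WIPI1, on chromosome 17 (chr17:68420948-68457513, GRCh38), which binds the phosphoinositide that marks a new autophagosome, was lower in DBTRG-05MG. It measured 10.8, 12.3, 13.3, 22.9 and 28.3 FPKM in DBTRG-05MG, against 46.4, 49.1, 36.98, 42.6 and 79.4 FPKM in U87. The lines did not overlap, DBTRG-05MG stood higher at each later time than at the one before, and U87 was highest at 48 h. The difference between the lines was -1.53 ± 0.18 (adjusted p = 0.000102), with a U87 mean 2.91-fold that of DBTRG-05MG. At 48 h the mean change was 1.04 ± 0.29 (adjusted p = 0.2), and the trend within DBTRG-05MG was 0.35 ± 0.09 per time step (adjusted p = 0.0994, the lowest of any member in that test). ARSG, which overlaps 24.3% of its exon bases on the other strand, was at most 1.30 FPKM.

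The kinase that starts autophagy, ULK1, had 14.3, 22.1, 11.3, 18.2 and 17.8 FPKM in DBTRG-05MG, against 29.6, 58.7, 30.2, 35.7 and 44.4 FPKM in U87. No library of DBTRG-05MG reached the lowest of U87, and in both lines the 6 h library was the highest. The line difference was -1.18 ± 0.14 (adjusted p = 8.10e-05), and the change at 6 h, 0.78 ± 0.22, had an unadjusted p of 0.00563 and an adjusted p of 0.726. ATG7, the E1-like enzyme that activates ATG12 and LC3, was at 1.99, 1.72, 2.29, 2.56 and 2.47 FPKM in DBTRG-05MG, against 9.21, 7.81, 5.86, 5.44 and 6.26 FPKM in U87. Every U87 library was above every DBTRG-05MG library, with a line difference of -1.29 ± 0.18 (adjusted p = 0.000313). VGLL4 overlaps 18.1% of ATG7's exon bases on the other strand and was 8.48 to 12.0 FPKM in DBTRG-05MG, above ATG7 there, and 6.53 to 7.98 FPKM in U87; its part in the difference was not tested.

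ATG5, the partner of ATG12 in the conjugate that lipidates LC3, stood at 5.98, 5.58, 8.08, 8.68 and 8.24 FPKM in DBTRG-05MG, against 15.1, 17.5, 12.1, 8.303 and 14.6 FPKM in U87. The ranges overlapped through the U87 library at 24 h, and the difference was -0.79 ± 0.22 (adjusted p = 0.0142), with adjusted p = 0.0531 without either 0 h library. BECN1, a core subunit of the lipid kinase complex, gave 14.4, 18.8, 16.6, 20.5 and 20.8 FPKM in DBTRG-05MG, against 25.1, 28.04, 28.1, 23.9 and 22.4 FPKM in U87. The ranges did not overlap, and the difference of -0.47 ± 0.15 (adjusted p = 0.0263) was lost, at adjusted p from 0.0665 to 0.0997, without either line's library at 0, 6 or 12 h. UVRAG, its partner in the same complex, ran the other way, with 5.04, 3.95, 4.96, 6.22 and 6.77 FPKM in DBTRG-05MG, against 3.48, 2.204, 2.24, 2.32 and 3.98 FPKM in U87. DBTRG-05MG was higher at every time, by 0.74 ± 0.16 (adjusted p = 0.00332), although its 6 h library lay just below the highest U87 one. ATG12 ranged over 13.4 to 18.8 FPKM in DBTRG-05MG, against 11.9 to 18.00 FPKM in U87, with no call.

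Of the 12 autophagy genes, 2 were called higher and 5 lower in DBTRG-05MG than in U87 in the line test, where 35.2% of all tested genes were called higher and 19.7% lower, with GABARAPL1 and UVRAG on the DBTRG-05MG side. At 48 h all 12 were above 0 h in DBTRG-05MG and 8 in U87, where 52.0 and 34.6% of all tested genes were. The median log2 changes were 0.46 and 0.30, and with equal medians 10 were above 0 h in U87, against 53.8% of all tested genes. BECN1, ATG5, ATG7 and ATG12 were the members below 0 h at 48 h in U87 as deposited.

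**Figure D3:**
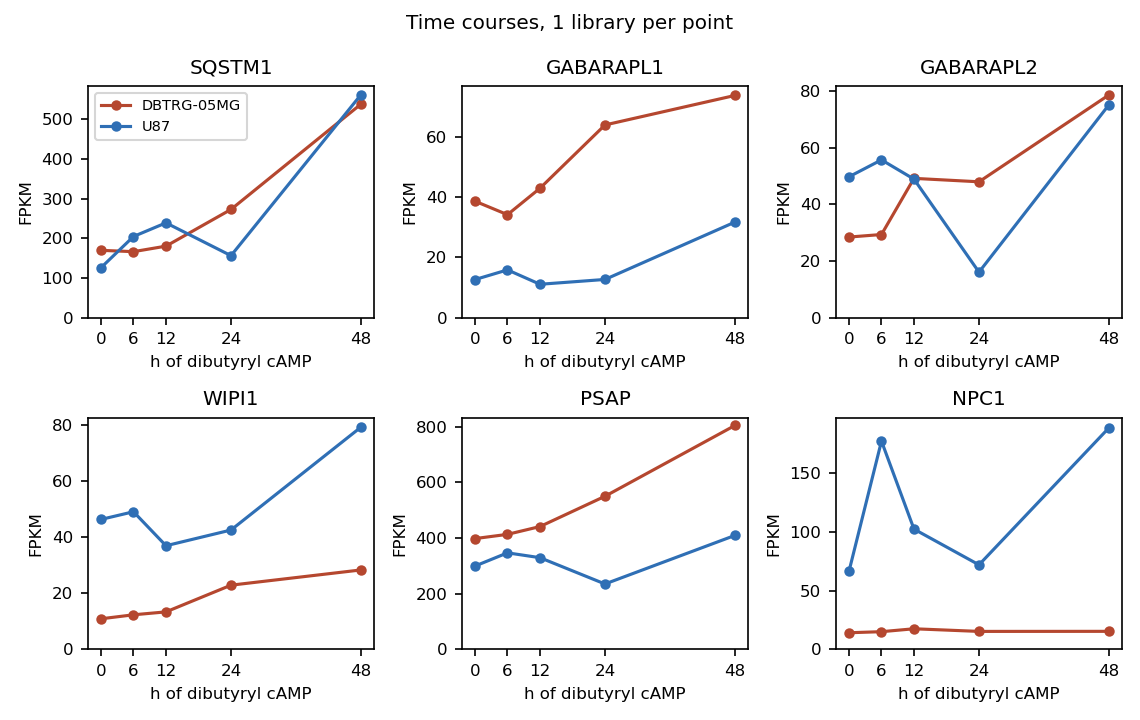
FPKM over hours of dibutyryl cAMP for 6 members, with 1 library per point, DBTRG-05MG in red and U87 in blue. SQSTM1 reaches 539 FPKM in DBTRG-05MG, against 563 FPKM in U87 at 48 h, while NPC1 is high at 6 and 48 h in U87 and stays within 13.96 to 17.4 FPKM in DBTRG-05MG.

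TFEB and MITF, the transcription factors among the members, were low and opposed between the lines. TFEB had 3.71, 4.94, 5.26, 6.66 and 5.68 FPKM in DBTRG-05MG, against 1.91, 0.635, 2.36, 2.69 and 1.605 FPKM in U87. All DBTRG-05MG libraries lay above all U87 libraries, and the lowest value of all was U87 at 6 h. The lines differed by 1.17 ± 0.19 (adjusted p = 0.00074). MITF, which also drives the melanocyte programme, had 1.29, 0.8104, 1.25, 1.097 and 1.299 FPKM in DBTRG-05MG, against 4.41, 6.695, 8.33, 4.61 and 5.22 FPKM in U87. Here every U87 library was above every DBTRG-05MG library, and U87 was highest at 12 h. The difference was -1.65 ± 0.18 (adjusted p = 5.44e-05), a U87 mean 5.09-fold that of DBTRG-05MG.

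Neither factor's change at 48 h passed, with 0.17 ± 0.30 for TFEB (adjusted p = 0.85) and 0.10 ± 0.28 for MITF (adjusted p = 0.904). TFEB's mean change turned to -0.13 without DBTRG-05MG at 0 h. The melanocyte markers were low in both lines: of the 5 that the table lists, 2 reached 1 FPKM (PMEL and MLANA), and the list summed to 0.983 to 3.68 FPKM in DBTRG-05MG, against 0.446 to 1.20 FPKM in U87.

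Among the membrane proteins NPC1 separated the lines most. NPC1, on chromosome 18 (chr18:23506184-23586898, GRCh38), carries cholesterol out of the lysosome, and it had 13.96, 14.9, 17.4, 15.1 and 15.2 FPKM in DBTRG-05MG, against 66.4, 178, 102, 71.97 and 189 FPKM in U87. DBTRG-05MG varied little, while in U87 the 6 h and 48 h libraries stood above the other 3. The line difference was -2.78 ± 0.24 (adjusted p = 1.16e-05), with a U87 mean 7.95-fold that of DBTRG-05MG. At 48 h the mean change was 0.80 ± 0.38 (adjusted p = 0.428), made of 0.11 in DBTRG-05MG and 1.496 in U87, and the difference in trend had adjusted p = 0.745. Its soluble partner NPC2, which hands cholesterol to NPC1, had 80.9, 88.97, 86.2, 71.9 and 70.9 FPKM in DBTRG-05MG, against 209, 158, 165, 106 and 175 FPKM in U87. U87 was higher at every time without overlap, with a line difference of -0.99 ± 0.16 (adjusted p = 0.000651), and NPC2 was lower at 48 h than at 0 h in both lines as deposited, though not in U87 with equal medians.

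LAMP1, a heavily glycosylated protein of the lysosomal membrane, stood at 194 to 207 FPKM in DBTRG-05MG, against 147 to 181 FPKM in U87. The lines did not overlap, but the difference of 0.28 ± 0.13 (adjusted p = 0.0955) did not pass. LAMP2, its relative, which also takes part in chaperone-mediated autophagy, had 15.5, 14.7, 18.8, 17.5 and 20.2 FPKM in DBTRG-05MG, against 30.3, 27.6, 22.9, 16.9 and 30.5 FPKM in U87. The ranges overlapped through the U87 library at 24 h, and the difference of -0.52 ± 0.17 (adjusted p = 0.0304) was lost, at adjusted p from 0.0737 to 0.110, without either line's library at 0, 6 or 48 h.

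CD63, a tetraspanin of late endosomes and lysosomes, had 156, 195, 234, 239 and 284 FPKM in DBTRG-05MG, against 342, 414, 335, 227 and 348 FPKM in U87. DBTRG-05MG was higher at each later time than at the one before, and the lowest U87 library, at 24 h, lay within the DBTRG-05MG range. The difference of -0.59 ± 0.20 (adjusted p = 0.0328) was lost, at adjusted p from 0.0604 to 0.116, without either line's library at 0, 6 or 12 h and with no filter on low values. MCOLN1, the calcium channel TRPML1, had 20.6, 21.1, 18.8, 20.5 and 18.8 FPKM in DBTRG-05MG, against 12.3, 13.9, 10.4, 15.4 and 10.6 FPKM in U87. The lines did not overlap, and DBTRG-05MG was higher by 0.64 ± 0.13 (adjusted p = 0.00314), and the adjusted p became 0.0567 when libraries were scaled to equal medians. Its promoter, printed above, holds TCACGTGA at 2 places, as does the window of LAMP1. The MCOLN1 level at 48 h was below that at 0 h in both lines as deposited, though not in U87 with equal medians.

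Among the 6 proteases CTSZ, a lysosomal carboxypeptidase on chromosome 20 (chr20:58995185-59007247, GRCh38), differed most of all members. It had 317, 342, 369, 391 and 455 FPKM in DBTRG-05MG, against 17.4, 16.7, 19.1, 18.03 and 21.5 FPKM in U87. The lowest DBTRG-05MG library was far above the highest U87 library, and each line had its highest level at 48 h. Levels averaged 375 ± 52.5 FPKM in DBTRG-05MG, against 18.5 ± 1.85 FPKM in U87 (SD over the 5 times), 20.2-fold higher in DBTRG-05MG, and the log2 difference was 4.26 ± 0.13 (adjusted p = 1.85e-08). CTSK, the collagen-degrading cathepsin known from osteoclasts, ran the other way at 2.43, 2.001, 2.18, 2.44 and 3.21 FPKM in DBTRG-05MG, against 10.96, 13.2, 11.8, 10.2 and 11.9 FPKM in U87. No library overlapped, the U87 mean was 4.73-fold that of DBTRG-05MG, and the difference was -1.87 ± 0.15 (adjusted p = 8.56e-06). CTSA, the protective protein that stabilises NEU1 and GLB1, had 166, 156, 127, 150.3 and 183 FPKM in DBTRG-05MG, against 270.1, 249, 265, 269 and 304 FPKM in U87. It too was higher in U87 without overlap, with a line difference of -0.80 ± 0.13 (adjusted p = 0.000922).

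CTSD, the main aspartic protease of the lysosome, had the highest mean FPKM of all 38 members. It measured 657, 594, 449, 564 and 861 FPKM in DBTRG-05MG, against 478, 468, 476, 623 and 687 FPKM in U87. Both lines were highest at 48 h, and the lines overlapped. The change at 48 h was 0.46 ± 0.25 (adjusted p = 0.496), the largest of the proteases, and the line difference did not pass (adjusted p = 0.37). Of its exon bases 41.7% are shared with another annotated gene on the same strand.

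CTSB, a cysteine protease, ranged over 210.1 to 271 FPKM in DBTRG-05MG, against 184 to 274 FPKM in U87 and was highest at 48 h in both. CTSL, another cysteine protease, had 63.2, 64.3, 86.8, 92.9 and 118 FPKM in DBTRG-05MG, against 153, 154, 119, 88.8 and 119 FPKM in U87. DBTRG-05MG stood higher at each later time, while U87 was highest at 6 h and lowest at 24 h. The line difference for CTSL was -0.58 ± 0.23 (limma adjusted p = 0.0552), and its adjusted p ran from 0.005 to 0.184 over the other settings. Its log2 change at 48 h was 0.89 in DBTRG-05MG, against -0.36 in U87, and the difference in trend, 0.38 ± 0.10 per time step, had an unadjusted p of 0.00233 and the lowest adjusted p of any member, 0.243. At 48 h 5 of the 6 proteases, all but CTSL, were higher than at 0 h in both lines, where 23.6% of all tested genes were.

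**Figure D4:**
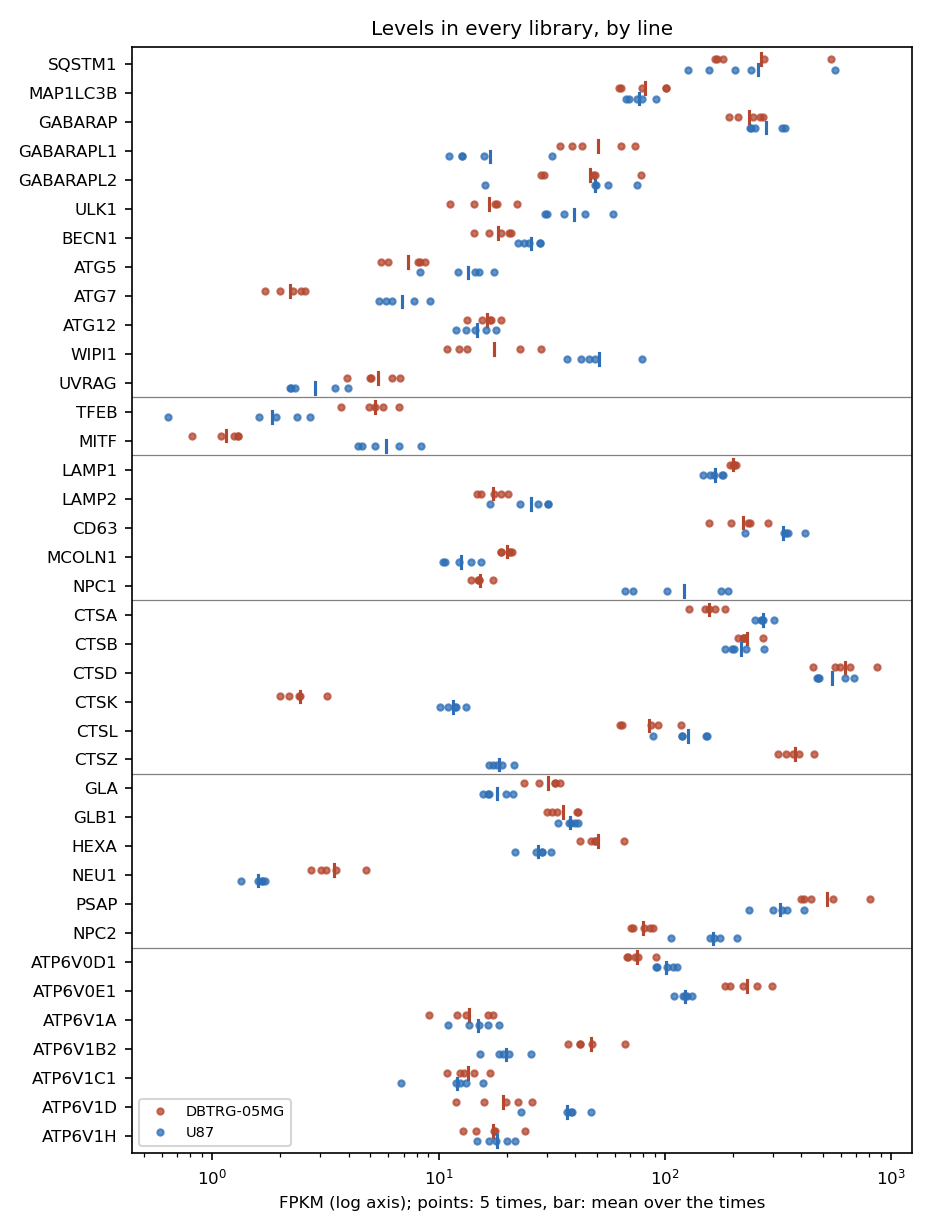
Level of each member in FPKM on a log axis, with a point for each of the 5 times and a bar for their mean, DBTRG-05MG in red above U87 in blue. CTSZ shows the widest gap, with 317 to 455 FPKM in DBTRG-05MG, against 16.7 to 21.5 FPKM in U87, and CTSD, GABARAP and CTSB overlap.

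The enzymes that remove sugars from glycolipids and glycoproteins were mostly higher in DBTRG-05MG. HEXA, the alpha subunit of hexosaminidase, had 47.4, 42.1, 49.3, 48.9 and 65.9 FPKM in DBTRG-05MG, against 28.7, 27.04, 28.8, 21.8 and 31.4 FPKM in U87. The lines did not overlap, and the difference was 0.85 ± 0.14 (adjusted p = 0.000721). GLA, alpha-galactosidase, had 27.8, 23.8, 32.6, 34.3 and 32.8 FPKM in DBTRG-05MG, against 15.7, 19.9, 16.5, 16.7 and 21.4 FPKM in U87. Its lines did not overlap either, with a difference of 0.71 ± 0.15 (adjusted p = 0.00352). NEU1, a sialidase, had 3.54, 3.01, 2.73, 3.195 and 4.75 FPKM in DBTRG-05MG, against 1.34, 1.67, 1.600, 1.66 and 1.72 FPKM in U87. The lowest DBTRG-05MG library exceeded the highest U87 library, and the difference was 0.76 ± 0.15 (adjusted p = 0.00244). GLB1, beta-galactosidase, the source of the activity stained as a sign of senescence, ranged over 30.1 to 41.3 FPKM in DBTRG-05MG, against 33.9 to 41.2 FPKM in U87. No difference between the lines passed for it (adjusted p = 0.541), nor a change at 48 h, 0.12 ± 0.23 (adjusted p = 0.858).

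PSAP is the precursor of the saposins, which present lipids to these enzymes. It had 398, 413, 441, 550.3 and 805 FPKM in DBTRG-05MG, against 299, 347, 329, 234 and 409 FPKM in U87. DBTRG-05MG was higher at each later time, both lines were highest at 48 h, and the ranges overlapped at their edges. The change at 48 h was 0.73 ± 0.29 (unadjusted p = 0.0317, adjusted p = 0.355), with 1.02 in DBTRG-05MG and 0.45 in U87. The line difference of 0.66 ± 0.18 (adjusted p = 0.0133) was lost, at adjusted p from 0.0519 to 0.0874, with equal medians and without either 48 h library. Of the 6 genes in this group, 4 were called higher in DBTRG-05MG and 1, NPC2, higher in U87, where 35.2 and 19.7% of all tested genes were. At 48 h 5 stood above 0 h in both lines, as did 23.6% of all tested genes.

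The proton pump genes were higher at the end of the course in DBTRG-05MG. All 7 were higher at 48 h than at 0 h in DBTRG-05MG and 1, ATP6V1A, was in U87, where 52.0 and 34.6% of all tested genes were. The median log2 changes were 0.50 and -0.11. The U87 side rested on scaling: with equal medians 6 of 7 were higher in U87 (median 0.15, 53.8% of all tested genes), and with equal upper quartiles 5 of 7 (median 0.052, 46.5%). All 7 stayed higher in DBTRG-05MG in both, where 54.0 and 53.5% of all tested genes were. ATP6V1B2, the B subunit of the V1 head, had 37.5, 42.3, 42.3, 47.8 and 66.8 FPKM in DBTRG-05MG, against 20.5, 25.5, 19.2, 15.2 and 18.5 FPKM in U87. The lines did not overlap, the DBTRG-05MG library at 48 h was the highest, and the difference was 1.21 ± 0.19 (adjusted p = 0.000514). The difference in trend passed for none of the 7, with adjusted p from 0.299 to 0.848. ATP6V0E1, a small V0 subunit, had 254, 184, 194, 222 and 297 FPKM in DBTRG-05MG, against 132, 123, 125, 120.4 and 110.0 FPKM in U87. DBTRG-05MG was higher without overlap, by 0.89 ± 0.16 (adjusted p = 0.00136).

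ATP6V1D, a subunit of the rotating stalk, had 11.98, 15.8, 25.96, 19.8 and 22.3 FPKM in DBTRG-05MG, against 38.5, 47.3, 38.7, 23.01 and 36.8 FPKM in U87. U87 was higher at every time, although its 24 h library fell within the DBTRG-05MG range, and the difference was -0.92 ± 0.22 (adjusted p = 0.00649). Its mean change at 48 h of 0.39 ± 0.35 (adjusted p = 0.684), the largest of the pump, turned to -0.039 without DBTRG-05MG at 0 h. ATP6V0D1, a V0 subunit beneath the stalk, had 73.4, 76.1, 67.7, 68.8 and 90.9 FPKM in DBTRG-05MG, against 91.8, 109, 102, 113 and 91.4 FPKM in U87. The lines came within 1 FPKM of each other without overlapping, and the difference of -0.43 ± 0.15 (adjusted p = 0.0336) was lost, at adjusted p from 0.0637 to 0.112, without either line's library at 0, 6, 12 or 24 h.

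The remaining pump subunits, all of V1, overlapped between the lines with no call. ATP6V1A, the catalytic subunit, ranged over 9.11 to 17.5 FPKM in DBTRG-05MG, against 11.04 to 18.5 FPKM in U87. For ATP6V1C1 and ATP6V1H, subunits that regulate how V1 joins V0, the ranges were 10.9 to 16.8 and 12.8 to 24.2 FPKM in DBTRG-05MG, and 6.79 to 15.7 and 14.8 to 21.6 FPKM in U87.

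The difference between the lines' time courses was tested directly as the difference of their trends. It called 0 members and 2 genes, 0.0162% of those tested, in limma at adjusted p under 0.05. At an unadjusted p under 0.05 stood 7 members, ATG7, CD63, CTSL, ATP6V1B2, ATP6V1C1, ATP6V1D and ATP6V1H, beside 13.4% of all tested genes, and in each the trend was higher in DBTRG-05MG, as in 10.3% of all genes. The trend of each single line was judged against a spread pooled over both lines. Within DBTRG-05MG the trend called 0 members, against 138 genes or 1.12% of those tested, and 10 members had an unadjusted p under 0.05, all upward, where 17.9% of all genes did and 9.83% did upward. In U87 it called 0 members and 0 genes, 0.0%, with 4 members and 12.5% of all genes, 1545, at an unadjusted p under 0.05, of which SQSTM1 alone was upward, where 2.39% of all genes were. The mean trend of both lines called 0 members and 9 genes, 0.0729%, and 6 members (SQSTM1, MAP1LC3B, GABARAPL1, WIPI1, CTSZ and PSAP) had an unadjusted p under 0.05, all upward, beside 17.5% of all genes, or 5.96% upward.

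The trend calls depended on the U87 library at 24 h and on how time was scaled. Without that library the mean trend called SQSTM1 (adjusted p = 0.0270) and GABARAPL2 (adjusted p = 0.0476), with 267 genes in all, and the DBTRG-05MG trend called GABARAPL2 (adjusted p = 0.0305), SQSTM1 (adjusted p = 0.0419) and CTSL (adjusted p = 0.0483). The mean trend of GABARAPL2 was 0.15 ± 0.12 as deposited (limma adjusted p = 0.567). Over the other settings it ran from -0.067 to 0.246, so its direction was not kept. With time in hours in place of ranks the mean trend called SQSTM1 (adjusted p = 0.0181), WIPI1 (adjusted p = 0.0305) and GABARAPL1 (adjusted p = 0.0385), with 474 genes in all, and the DBTRG-05MG trend called WIPI1 (adjusted p = 0.0448) and SQSTM1 (adjusted p = 0.0484). Without U87 at 48 h the DBTRG-05MG trend called WIPI1 (limma adjusted p = 0.0324). Leaving out a U87 library does not move the DBTRG-05MG slope, which stayed at 0.346 per step for WIPI1. It changes only the spread pooled over both lines, so these calls are not further evidence on the DBTRG-05MG course.

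The lines differed in 25 of 38 members, and in 55.0% of all tested genes. DBTRG-05MG was higher in 11 members, where 35.2% of all genes were, and U87 in 14, where 19.7% of all genes were. Without overlap of any library 20 of 38 members differed, where 40.9% of all tested genes did, 10 in each direction, where 27.1% were higher in DBTRG-05MG and 13.8% in U87. The median difference was -0.05 over the members and 0.18 over all tested genes. Scaling to equal medians moved the split of all calls to 3238 higher and 3719 lower in DBTRG-05MG, beside 4350 and 2439 as deposited, and that of the members to 9 and 16. Of the members called as deposited only MCOLN1 and PSAP lost their call there, while CTSL and GABARAP gained a call. With equal upper quartiles 26 of 38 members were called, and 6820 of 12352 tested genes. Without the 0 h library of DBTRG-05MG 20 of 38 members and 6026 of 12352 genes were called. Without that of U87 the counts were 20 members and 6028 genes. The p-values cover variation along each line's time course only.

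**Figure D5:**
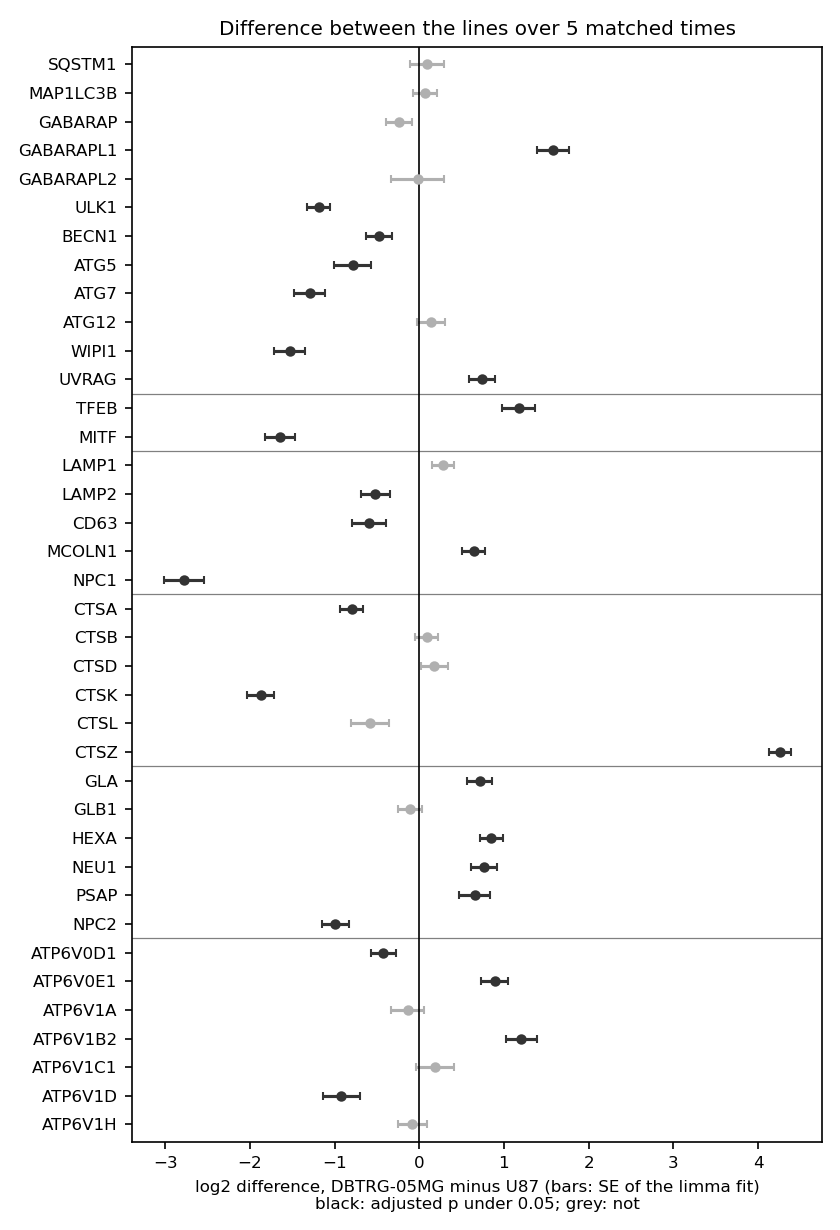
Difference of each member between the lines, in log2(FPKM + 1), DBTRG-05MG minus U87 over 5 matched times, with bars for the SE of the limma fit, black where adjusted p is under 0.05 and grey where it is not. CTSZ lies farthest to the right (4.26) and NPC1 farthest to the left (-2.78), and 25 of 38 points are black.

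The rest of the pathway was read from 145 further genes on 5 lists, of which 144 were in the table and 129 were tested. In limma 0 were called at 48 h or in the mean trend, and at an unadjusted p under 0.05 stood 10 higher and 0 lower at 48 h, where 3.71% of all tested genes were higher, and 13 in the mean trend in either direction, where 17.5% of all tested genes were. Between the lines 51 were called higher in DBTRG-05MG and 21 higher in U87, 39.5 and 16.3% of the 129, close to the 35.2 and 19.7% of all tested genes. Of the 129, 59 were higher at 48 h in both lines and 20 were lower in both, where 23.6 and 36.0% of all tested genes were, and with equal medians 80 were higher and 7 lower (35.1 and 26.3%). Among 39 other autophagy genes 12 were higher in both lines and 8 lower in both, with median log2 changes of 0.044 in DBTRG-05MG and 0.0035 in U87. MAP1LC3A, another LC3 protein, had 16.1, 17.96, 14.1, 17.9 and 23.9 FPKM in DBTRG-05MG, against 5.01, 9.37, 8.15, 10.1 and 13.4 FPKM in U87, the largest mean change upward of that list at 0.90 ± 0.25 (adjusted p = 0.203). Its level in DBTRG-05MG was above that in U87 at every time, by 0.93 ± 0.16 (adjusted p = 0.00102). BNIP3, a receptor that marks mitochondria for autophagy, had the largest mean change downward, -0.66 ± 0.77 (adjusted p = 0.758), with 229, 93.3, 55.4, 55.9 and 85.6 FPKM in DBTRG-05MG, against 65.97, 110.4, 212, 219 and 70.6 FPKM in U87. DBTRG-05MG was highest at 0 h, while U87 was highest at 12 and 24 h.

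Of 11 other pump genes 8 were higher at 48 h in both lines and 0 were lower in both, where 23.6 and 36.0% of all tested genes were. Their medians were 0.33 in DBTRG-05MG and 0.24 in U87. ATP6V0B, a V0 subunit, had 102, 101, 129, 135 and 176 FPKM in DBTRG-05MG, against 68.2, 87.2, 89.8, 73.9 and 112 FPKM in U87. Both lines were highest at 48 h, with a mean change of 0.74 ± 0.22 (adjusted p = 0.224). ATP6V0E2, the relative of ATP6V0E1, had the lowest mean change of the list, -0.15 ± 0.33 (adjusted p = 0.881), and was higher in DBTRG-05MG by 0.96 ± 0.21 (adjusted p = 0.00414).

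Among 37 other hydrolases 22 were higher in both lines at 48 h and 3 lower in both, where 23.6 and 36.0% of all tested genes were. Their medians were 0.19 in DBTRG-05MG and 0.24 in U87. The largest mean changes at 48 h were 0.75 ± 0.26 for SCPEP1, a serine carboxypeptidase (adjusted p = 0.289), and -0.26 ± 0.32 for CTSS, a cysteine cathepsin (adjusted p = 0.769). Among 24 membrane genes 13 were higher and 2 lower in both lines, against the same 23.6 and 36.0% of all tested genes. SLC17A5, the exporter of sialic acid, had the largest mean change upward, 0.76 ± 0.24 (adjusted p = 0.252), and CLN3, a lysosomal membrane protein, lay at -0.29 ± 0.27 (adjusted p = 0.689). Among 18 genes of the TFEB family and nutrient sensing 4 were higher and 7 lower in both lines, close to the 23.6 and 36.0% of all tested genes. RRAGA at 0.44 ± 0.26 (adjusted p = 0.525) and FNIP2 at -0.42 ± 0.23 (adjusted p = 0.498) were at the ends of that list.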

How the data were processed

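RNA was measured in 10 libraries, 1 for each line and time. The deposited table was read as FPKM, an inference from its values, since the labels do not name the unit; the value 0.002 stands for 0. The submitters' processing notes name HISAT, Bowtie2, RSEM and hg38 without versions. The protocol, per the labels, selects poly(A) RNA and names no strand marking. The labels' 1 mM and times to 48 h were followed where the series design text gives another dose and length.

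The 12352 of 20379 genes that averaged at least 1 FPKM were tested as log2(FPKM + 1) in limma 3.58.1 (R 4.3.3, mean-variance trend, Benjamini-Hochberg over all tested genes, threshold 0.05), so that fold changes of low genes are understated on that scale. Changes at each time and the difference between the lines came from a fit of line and time (4 residual degrees of freedom), and trends from a fit of line and line by time rank (6 residual degrees of freedom). Libraries pair by cell line, as the design gives it. The changes at the 4 later times share the 0 h libraries. Nothing in the labels says that libraries of a line came from separate cultures, and no line and time was repeated. The p-values therefore rest on the lines' disagreement over the times or, for trends, on departure from a straight line. Technical and culture spread cannot be told apart in them. Folds without a test are ratios of FPKM; counts at or above 2-fold use log2(FPKM + 1).

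The members and lists were chosen with earlier results of these data known. Named with the value in each library were members past the threshold in any test and, per role, those with the largest change at 48 h and the largest line difference; other values shown were chosen after they were seen. From the wider lists the largest mean change in each direction is named. Overlaps are of at least 10% of exon bases in GENCODE on GRCh38. The fits were tested on simulated data (50 genes per size, noise SD 0.27 log2 units). Alternatives changed the filter, the pseudocount, the scaling (equal medians or upper quartiles), the mean-variance trend, the block and the scale of time, or left out each library. Python 3.11.15, pandas 2.3.3, numpy 2.4.6 and matplotlib 3.10.9 served for the rest.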

Additional observations from a re-analysis of the deposited data

How the results depend on the processing

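The line difference kept its direction for all 25 called members in every setting run, with 362 of 395 values on the same side of the threshold and 33 no longer past it, among BECN1, ATG5, LAMP2, CD63, MCOLN1, PSAP and ATP6V0D1; leaving out 1 library removes its time from that comparison. Genes called between the lines were 6789 as deposited, 4451 with a mean of at least 5 FPKM, where 33 members were tested, and 5855 to 6515 without 1 library, with 20 to 25 members. Of the named changes at 48 h, 150 of 152 values kept their direction and, like the main values, did not pass the threshold. The other 2 reversed, TFEB (-0.13 to 0.47 without 1 library) and ATP6V1D (-0.039 to 0.82), both without DBTRG-05MG at 0 h. Sizes still moved, as in NPC1 (0.32 to 1.29) and CTSD (0.28 to 0.63). Of the mean trends of SQSTM1, GABARAPL1 and WIPI1, 50 of 54 values kept their direction and did not pass, and 4 passed the threshold. Members called were 0 at 6, 12, 24 and 48 h in all settings. Genes called were 1 each at 6, 12 and 24 h as deposited, 3, 3 and 2 with a pseudocount of 0.1, 0, 3 and 2 with no filter, 0 at each with equal medians, and 0 at each without the replicate block; without 1 library they ran from 0 to 2 at 6 h, 0 to 3 at 12 h, 0 to 3 at 24 h and 0 to 2 at 48 h. No other call changed without the replicate block at those times. The mean trend called 9 genes, 5 with a pseudocount of 0.1, 17 with no filter, 36 with equal medians, 0 with log2 hours, 474 with hours (3 members) and 1 to 267 without 1 library (0 to 2 members). The difference in trend called 2 genes, 1 with a pseudocount of 0.1, 5 with no filter, 1 with a mean of at least 5, 0 with log2 hours, 14 with hours and 1 to 67 without 1 library. The DBTRG-05MG trend called 138 genes, 11 with a pseudocount of 0.1, 239 with no filter, 49 with a mean of at least 5, 8 with log2 hours, 372 with hours (2 members) and 2 to 339 without 1 library (0 to 3 members). The U87 trend called 0 genes, 1 with no filter, 3 with equal medians and 0 to 450 without 1 library. In alternatives chosen after seeing the data, members higher at 48 h in both lines numbered 24 with a pseudocount of 0.1, 32 with equal medians (35.1% of all tested genes) and 30 with equal upper quartiles (30.9%), beside 24 and 23.6% as deposited. In the same alternatives pump members higher in U87 numbered 1 as deposited and with that pseudocount (34.6% of all tested genes), 6 with equal medians (53.8%) and 5 with equal upper quartiles (46.5%). Members at least 2-fold higher numbered 4 in DBTRG-05MG in all 3 and 3, 4 and 3 in U87. As deposited they numbered 4 and 3, where 4.57 and 2.14% of all tested genes were that high. That share is not given for the alternatives, so their counts cannot be read alone. The cause of these moves was not tested. With 1 library per line and time, a change present in 1 line widens the spread against which it is judged.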
